A study of Equus asinus with 3 samples.

Results

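CST3, CST8 and CST11, 3 genes of the cystatin family, were followed through the testis and epididymis of the donkey (Equus asinus). These 3 of the 34267 gene features listed in single-cell RNA libraries were chosen by name, CST8 for its course along germ cell stages, CST11 for luminal epithelial cells, and CST3 for somatic cells. Testis, labelled as germ cells, and 2 epididymal segments, caput and corpus, both labelled as somatic cells, each gave 1 library. The tissue came from 3 sexually mature males with no treatment, genotype or strain named. The sources used here do not tell which animal gave which library, or whether animals were pooled. With 1 library per tissue there is no replicate check, so no p-value is given; every interval below is a 95% interval and covers counting error only.

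Many cystatins inhibit papain-like cysteine proteases, the group that holds the lysosomal cathepsins. CST3, cystatin C, is the widely secreted family member and blocks cathepsins outside the cell. Whether CST8 or CST11 inhibits such proteases was not tested here. CST8, also called CRES (cystatin-related epididymal spermatogenic), and CST11 belong to the reproductive branch of the family, whose members are known from spermatogenic cells and from the epididymal duct. In that duct luminal cells secrete proteins onto passing sperm, and secretion is regional: the caput comes first and the corpus after it.

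The testis library held 8610 barcodes with a median of 4714 UMIs (unique molecular identifiers, counted RNA molecules), the caput library 9478 with 1145, and the corpus library 9611 with 371. Cells were clustered within each library without any cystatin gene, so the levels of the members did not shape the clusters, and clusters were named from marker lists as "like" a cell type. Some clusters had no cell type name and a summed share of very long genes at least 1.5 times the median cluster. They are called clusters led by long genes below, a label that rests on that share and not on their leading genes. They took in 42.3% of caput cells, 55.7% of corpus cells and 4.02% of testis cells. The doublet caller called 0, 0 and 2 cells in the testis, caput and corpus libraries, so it did not work here and doublets remain in the clusters. Barcodes were deposited as running numbers, so barcodes shared between libraries could not be counted. Levels are given as CPM, the UMIs of the gene in each 1000000 UMIs of the cluster. These are counts not divided by gene length, so they are compared for 1 gene across cells and not between genes.

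The 3 members had different main tissues. Testis held 1840 UMIs of CST3, 1058 of CST8 and 7 of CST11, or 38.6, 22.2 and 0.147 CPM over the whole library. Caput held 10713 of CST3, 127 of CST8 and 5857 of CST11, or 811, 9.62 and 444 CPM. Corpus held 7399 of CST3, 7 of CST8 and 8 of CST11, or 1787, 1.69 and 1.93 CPM. CST8 was thus highest in testis, CST11 in caput and CST3 in corpus. A change was called where the whole interval of a ratio lay beyond 2-fold and the higher side had at least 50 UMIs. CST8 in testis over caput was 2.31-fold (1.92 to 2.80) and was not called, while 18.9% of genes were. Scaled by the median gene ratio of the libraries it was 5.13-fold (4.27 to 6.22), beyond 2-fold. Over corpus, caput was called higher for CST8 (5.69-fold, 2.68 to 14.4) and for CST11 (230-fold, 116 to 532), as it was for 7.01% of genes. In these sums, fewer cells of a type and less RNA per cell cannot be told apart.

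CST8 stayed within a few CPM through the spermatocyte-like and unnamed germ clusters of the testis, clusters 7 and 12 apart, and was far higher in the elongating spermatid-like cluster. The 10 germ clusters were ordered by their spermatid over spermatocyte marker sums. The first 5, clusters 5, 1, 4, 2 and 3, held 2.24, 3.16, 2.99, 2.95 and 2.01 CPM, and no neighbouring pair among them differed beyond counting error. Cluster 0, of mixed stages, held 4.55 CPM (3.11 to 6.42). Outside the germ clusters, cluster 11 held 5.55 CPM (1.51 to 14.2, from 4 UMIs). It carried fibroblast markers, at 3394 CPM in sum, beside late spermatocyte markers at 7411 CPM.

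Round spermatid-like cells (cluster 6, 636 cells) held 6.79 CPM of CST8 (4.47 to 9.87). The next germ cluster in the order, number 7 with 369 cells, held 27.6 CPM (21.4 to 35.2), which was 4.07-fold more (2.57 to 6.63). Cluster 7 carried 13 of 17 elongating spermatid markers. With LOC features counted, 0 of them stood among its 10 leading genes and 1 round spermatid marker did, so it was left unnamed. The last, number 10 with 179 cells, was elongating spermatid-like and held 872 CPM (809 to 938). That was 31.5-fold above cluster 7 (24.5 to 41.2) and 128-fold above the round spermatid-like cluster (87.5 to 196), a call that 9.27% of 7863 tested genes also met in that direction. Cluster 10 alone carried 707 of the 1058 testis UMIs of CST8, or 66.8%.

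The size of that ratio depended on how the cells were grouped. Elongating over round spermatid-like cells gave 41.7 (33.6 to 52.1) at resolution 0.5 and 53.1 (42.7 to 66.7) with cystatins used for clustering. With germ cells split by marker score into 5 equal groups, the highest over the next group gave 17.3 (13.0 to 23.4). Round over late spermatocyte-like cells was 2.49-fold (1.44 to 4.25), which was not called, since the interval reached below 2-fold and the higher side had 27 UMIs. That ratio was 5.55 (3.77 to 8.32) at resolution 0.5 and 5.97 (3.68 to 10.1) with cystatins used for clustering, both wholly beyond 2-fold.

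**Figure D1:**
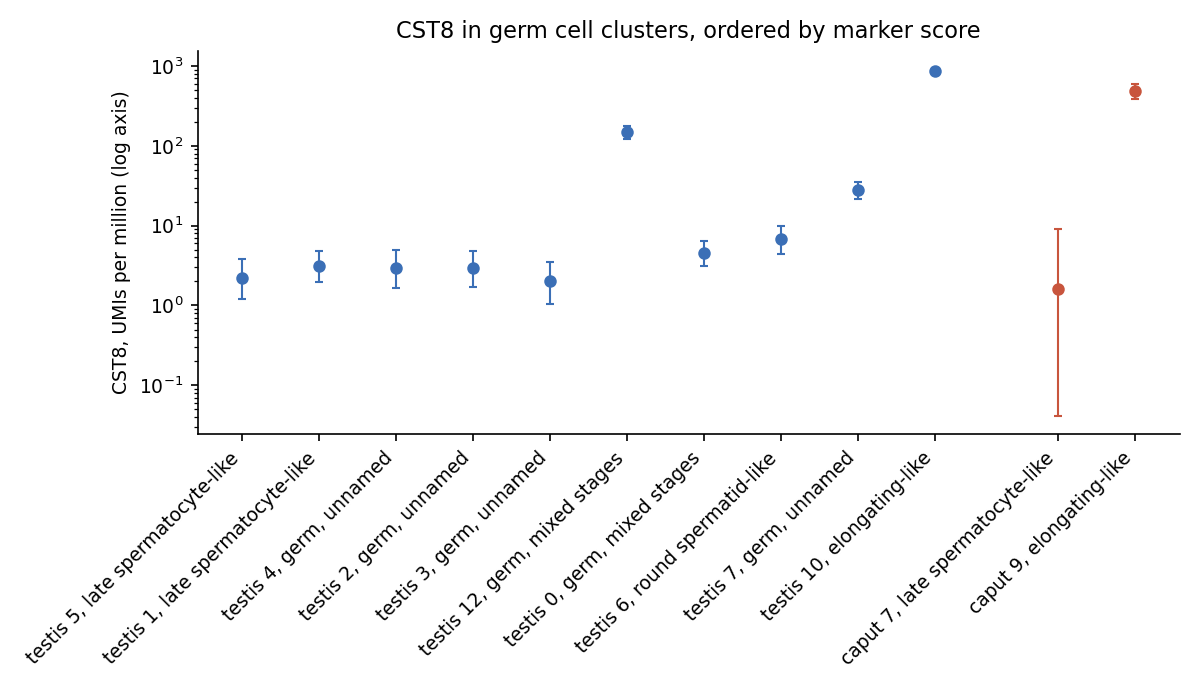
CST8 level (CPM, log axis) in the 10 testis germ clusters, ordered by marker score, and in 2 caput germ-like clusters; bars are exact Poisson 95% intervals. Levels lie near 2 to 7 CPM up to the round spermatid-like cluster, apart from cluster 12 of mixed stages at 147 CPM, stand at 27.6 CPM in the unnamed cluster 7, and reach 872 CPM in testis cluster 10 and 484 CPM in caput cluster 9.

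Cluster 12 stood outside this order. Its 114 cells carried both spermatocyte and spermatid markers at levels that kept it unnamed, and its CST8 level was 147 CPM (122 to 176). Its leading genes were TNP2 and TNP1, the transition proteins that replace histones in condensing sperm heads, while late spermatocyte markers reached 9056 CPM in sum. Its median depth, 6421 UMIs, was above the 3589 of cluster 10. The part of doublets in its CST8 level was not tested.

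CST8 also differed inside the elongating spermatid-like cluster. At a finer clustering, chosen after the levels were seen, its cells fell into groups of 114 and 65 cells with 471 and 2104 CPM of CST8, a 4.47-fold difference (3.84 to 5.21). Median depths of the 2 groups were 4579.5 and 2553 UMIs. TNP1 went the same way as CST8, at 21598 and 37513 CPM, but TNP2 was level, at 4290 and 4288 CPM. SPACA1, an acrosome membrane protein gene of round spermatids, went against CST8, at 1069 and 75.3 CPM. CST8 was therefore higher in the smaller group, where the acrosome gene was lower.

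Cell by cell, CST8 was broadly present in cluster 10. A UMI was found in 87.2% of its cells, with a median of 3 UMIs and an upper quartile of 5, and the highest cell held 25. In cluster 11, which holds germ cell RNA too, the share was 2.25% at a median depth of 3158.5 UMIs. In cluster 7, 13.8% of cells had a UMI and the highest held 3. After each cell was thinned to 300 UMIs, the shares were 28.5% (22.0 to 35.7) and 0.542% (0.0657 to 1.94). TNP2 and CST8 were detected together in 118 cells of cluster 10, CST8 alone in 38, TNP2 alone in 15 and neither in 8.

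The caput library contained germ cell-like clusters too, and most of its CST8 lay there. Its elongating spermatid-like cluster 9, with 108 cells and TNP1 at 10205 CPM, held 80 of the 127 caput UMIs of CST8 (63.0%). Its level, 484 CPM (384 to 603), lay between those of testis clusters 7 and 10: 17.5-fold above cluster 7 (12.5 to 24.7) and 0.555 of cluster 10 (0.435 to 0.701). The late spermatocyte-like cluster of the caput held 1 UMI.

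Luminal epithelial-like cells had little CST8 in these libraries. All 3059 luminal cells of the caput held 13 UMIs, or 3.14 CPM (1.67 to 5.36), against 2.77 CPM in caput fibroblast-like cells and 5.29 CPM in the clusters led by long genes. Caput cluster 4, the luminal cluster that carries CST11, had 0 UMIs, which allows up to 3.20 CPM. Corpus luminal cells had 0 UMIs as well, but 3 counts in their 165 cells would be 23.4 CPM, so the segments could not be compared.

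CSTL1, a cystatin-like gene of the reproductive branch, was high in the same germ cluster. It reached 200 CPM in testis cluster 10 against 2.93 in cluster 7, a 68.2-fold difference (32.3 to 172), and 72.6 CPM in caput cluster 9. CST8 and CSTL1 were the 2 family members with enough UMIs to be tested between elongating and round spermatid-like cells. Both were called higher in the former, CST8 from 707 against 27 UMIs and CSTL1 from 162 against 3. Of all 7863 genes tested, 9.27% were called in that direction. Only the elongating side gave either gene enough UMIs to be tested, and CST8 was chosen for its course along germ cell stages. The count of 2 therefore cannot tell whether the family as a whole is higher there. In RefSeq's annotation of the assembly EquAss-T2T_v2, CST3, CST11 and CSTL1 are close neighbours, with 4 protein-coding genes between CST3 and CST11. CST8 has no entry by that name there. One of the genes between, LOC106841792, looked at after its values were seen, held 457 CPM in testis cluster 10 and 27.6 in cluster 7, a 16.6-fold difference (12.7 to 21.9). It held 182 CPM in caput cluster 9. LOC106841779, another of the genes between, was also counted, and its values are not given here. The neighbours as a group therefore cannot be said to share this pattern.

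Across the 10 germ clusters, the genes most like CST8 by Pearson's r of log2 CPM, among 8456 genes, were FAM71F2 (r = 0.999), AKAP1 (0.999), UBE2J1 (0.997), CORO2A (0.996) and TMEM239 (0.996). AKAP1 anchors protein kinase A at the outer mitochondrial membrane, and UBE2J1 is a ubiquitin-conjugating enzyme of the endoplasmic reticulum. Their levels in cluster 10 were 905, 911, 1423, 840 and 229 CPM. These correlations describe 10 clusters of 1 library, and the highest CST8 values are those of clusters 10 and 12.

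CST11 lay mainly in 1 caput luminal cluster. Cluster 4, with 612 cells, held 4976 of the 5857 caput UMIs, or 85.0%, at 5300 CPM (5154 to 5449). The other luminal clusters, 1 (1976 cells) and 6 (471 cells), held 58.5 and 53.6 CPM, a 90.7-fold difference to cluster 1 (76.9 to 108) and a 98.9-fold difference to cluster 6 (72.0 to 140). Clusters 1 and 6 did not differ from each other beyond counting error (1.09-fold, 0.759 to 1.60). Cluster 4 shared the luminal markers with the others and was led by CST11, the lipocalins LCN8 and LCN6, several beta-defensins and PTGDS, a prostaglandin D synthase of the lipocalin family.

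**Figure D2:**
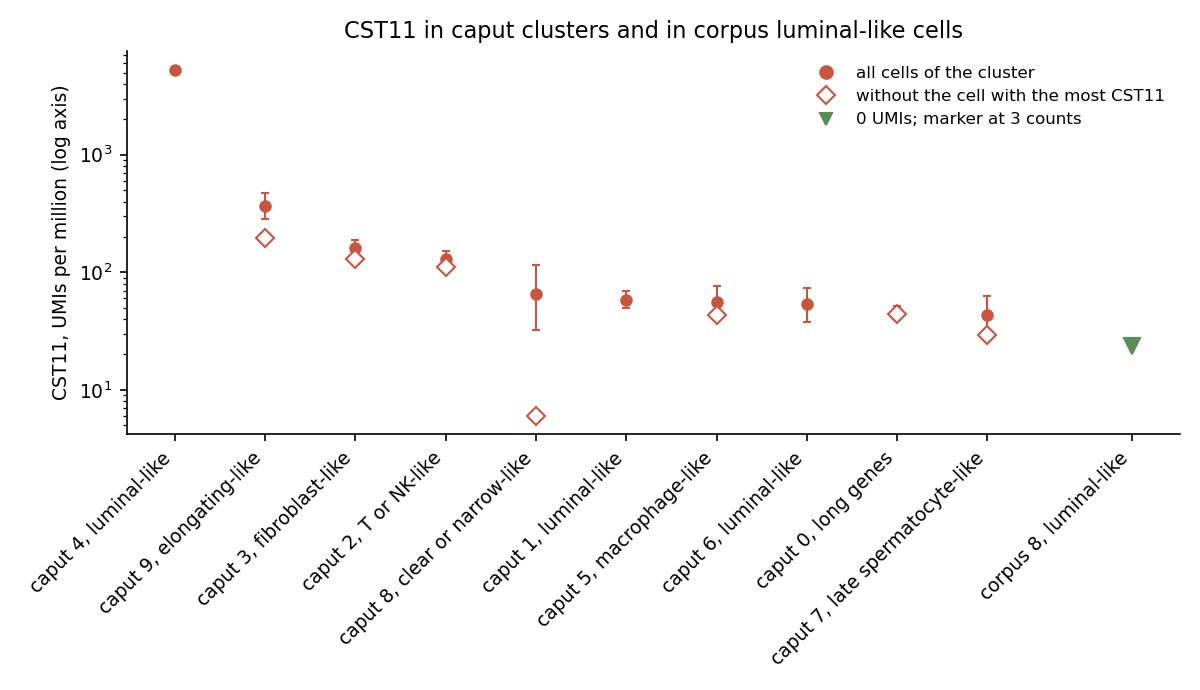
CST11 level (CPM, log axis) in the 10 caput clusters and in corpus luminal-like cells; bars are exact Poisson 95% intervals, and open diamonds leave out the single cell with the most CST11. Cluster 4 lies at 5300 CPM and all others at or below 369 CPM, and the clear or narrow-like cluster drops from 64.8 to 5.94 CPM without 1 cell.

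CST11 also differed between finer clusters of caput luminal cells. The 2 with the most CST11 were picked by that level, so their ratio is only a description. The first, with 199 cells, held 12269 CPM of CST11 and the second, with 405, held 1430 CPM. That was an 8.58-fold difference (7.96 to 9.25). LCN8 differed 57.8-fold between the same groups (41.9 to 82.1; 3701 and 64.0 CPM) and PTGDS 2.32-fold (10390 and 4481 CPM). DEFB119, a beta-defensin found through the luminal clusters, was lower in the first group, at 6922 against 10007 CPM. CST3 differed by less, at 692 and 559 CPM (1.24-fold, 1.04 to 1.47).

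A CST11 UMI was found in 61.8% of cells of cluster 4, and in 45.1% after thinning to 300 UMIs. The median cell held 2, the upper quartile was 10, and the highest cell held 114. Cells with at least 10 UMIs numbered 155 in cluster 4 and 0 in clusters 1 and 6. PTGDS was detected beside CST11 in 361 cells of cluster 4, CST11 alone in 17, PTGDS alone in 199 and neither in 35. Over the whole luminal class, 17.2% of caput cells had a UMI of CST11, or 10.5% after thinning. The share in caput macrophage-like cells was 4.86%, or 1.27% after thinning, at median depths of 1133 and 1318 UMIs in the luminal and macrophage-like cells.

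Other caput clusters held CST11 at 0.819% to 6.97% of the level in cluster 4. The elongating spermatid-like cluster held 369 CPM, the fibroblast-like 161, the T or NK-like 131, the clear or narrow-like 64.8, the macrophage-like 56.2, the clusters led by long genes 45.03 and the late spermatocyte-like 43.4 CPM. These sums leaned on few cells. A single cell carried 29 of the 61 UMIs in the elongating cluster, 35 of 174 in the fibroblast-like, 24 of 152 in the T or NK-like and 10 of 11 in the clear or narrow-like one. LCN8, a luminal gene, lay at 0.703% to 5.74% of its cluster 4 level in the same non-luminal clusters, and PTGDS at 1.13% to 7.84%. DEFB119 lay there at 5.19% to 19.6% of its own highest luminal level, that of cluster 1. The part of free RNA and of doublets in these levels was not tested.

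In corpus, luminal-like cells had 0 CST11 UMIs in 165 cells. A count of 3 there would be 23.4 CPM, and the exact upper limit is 28.8 CPM. Caput luminal cells, at 1245 CPM (1211 to 1279), were at least 53.2-fold higher, counted against 3 UMIs over the corpus group. That call was met by 1.51% of the 7399 genes tested in luminal cells in the same direction. For caput clusters 1 and 6 alone the bound against 3 UMIs was 2.50-fold and 2.29-fold, and the exact lower limits were 2.01-fold and 1.77-fold, so cluster 6 did not stand wholly beyond 2-fold. Most of the difference between segments in luminal cells thus came from cluster 4.

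CST11 was also called higher in caput in other classes. Fibroblast-like cells held 174 UMIs in caput and 1 in corpus, a ratio of 174 (30.8 to 6911), where 2.04% of genes were called in that direction. In T or NK-like cells, caput was 16.7-fold higher as a bound against 3 UMIs (background 3.47%). In the clusters led by long genes it was 13.8-fold higher (6.58 to 34.7; background 3.37%). Macrophage-like cells held 42 against 0 UMIs, a bound of 6.22-fold, but fewer than the 50 UMIs needed for a call. The corpus library held 8 CST11 UMIs in all, 7 of them in clusters led by long genes and 1 in fibroblast-like cells. Luminal markers moved with these differences. Their sum in fibroblast-like cells was 3707 CPM in caput and 318 in corpus. In T or NK-like cells it was 4838 and 430 CPM, in macrophage-like cells 3668 and 425 CPM, and in the clusters led by long genes 2346 CPM in caput and 427 to 476 in corpus. Their part in the result was not tested.

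Among 9481 genes over the 10 caput clusters, those most like CST11 were LCN8 (r = 0.995), LCN9 (0.986), DEFB128 (0.982), LCN6 (0.980) and SLC7A3 (0.973). Lipocalins bind small lipophilic molecules, beta-defensins are antimicrobial peptides of the epididymal fluid, and SLC7A3 is a cationic amino acid transporter. Their highest levels, all in cluster 4, were 1372, 408, 2642, 8384 and 547 CPM. LOC106841793, RefSeq's next protein-coding gene to CST11 on the side of CST3, was looked at after its values were seen. It held 63.9 CPM in cluster 4 and 4.37 in the other caput luminal clusters, a 14.6-fold difference (8.09 to 28.4, from 60 and 14 UMIs).

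CST3 was highest in macrophage-like cells in all 3 libraries. In caput they held 10450 CPM (10219 to 10684; 473 cells), in corpus 19046 CPM (18579 to 19522; 642 cells) and in testis 20164 CPM (19136 to 21233; 22 cells, a cluster under the 50 cells set for a class). The testis cluster also held germ cell RNA: late spermatocyte markers summed to 5293 CPM there, beside macrophage markers at 5251 CPM. Macrophage-like cells carried 72.8% of caput, 85.4% of corpus and 78.3% of testis CST3 UMIs while making up 4.99%, 6.68% and 0.256% of cells. In testis, 1 cell held 318 of the 1440 UMIs, and without it the level was 16523 CPM. In caput, 1 cell held 694 of 7803, and without it the level was 9583 CPM.

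Single macrophage-like cells varied widely. The median cell held 8 CST3 UMIs in caput (quartiles 3 and 20), 7 in corpus (3 and 12) and 30.5 in testis (9.75 and 66.25). Their median depths were 1318, 448.5 and 3075 UMIs. A UMI was found in 93.4%, 92.4% and 95.5% of them, and after thinning to 300 UMIs in 74.0% (69.8 to 77.9), 90.8% (88.3 to 92.9) and 77.3% (54.6 to 92.2). In the late spermatocyte-like cells of the caput, at a median depth of 1953 UMIs, the share was 13.7%, or 1.96% after thinning. Thinning left out 3 corpus macrophage-like cells and none from the other libraries.

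**Figure D3:**
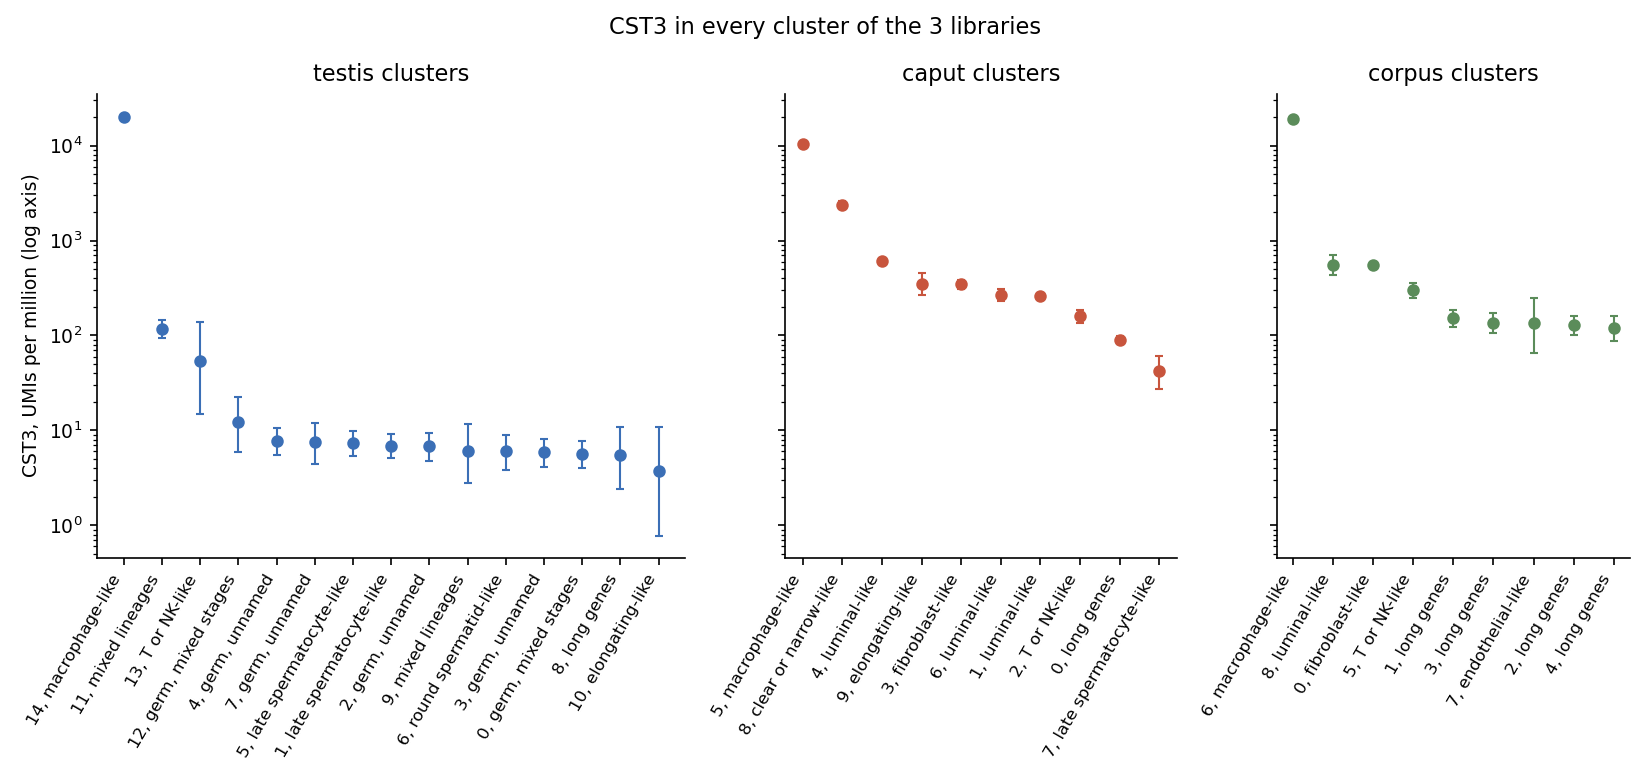
CST3 level (CPM, log axis) in every cluster of the testis, caput and corpus libraries, each sorted from high to low; bars are exact Poisson 95% intervals. The macrophage-like cluster is highest in each panel at 20164, 10450 and 19046 CPM, and most testis germ clusters lie between 3.7 and 7.8 CPM.

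Below the macrophages the order differed by segment. In caput the clear or narrow-like cluster came next at 2379 CPM (2153 to 2623; 404 UMIs, 115 cells). These are the proton-pumping cells that acidify the duct, named here from vacuolar ATPase subunits; endothelial markers were also raised in the cluster, to 919 CPM in sum. Its CST3 was 22.8% of the macrophage level. The macrophage genes CD74, LYZ and C1QA and the cathepsin gene CTSS there were at 13.4%, 2.55%, 1.29% and 13.1% of their macrophage levels. CST3 was found in 74.8% of these cells, with no cell above 17 UMIs.

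Caput luminal cluster 4 followed at 603 CPM (554 to 655), 2.25-fold above cluster 6 (1.91 to 2.67; 268 CPM) and 2.32-fold above cluster 1 (2.07 to 2.60; 260 CPM). Clusters 1 and 6 did not differ beyond counting error. Fibroblast-like cells held 345 CPM, the elongating spermatid-like cluster 351, T or NK-like cells 159, the clusters led by long genes 89.9 and the late spermatocyte-like cluster 41.8 CPM. In corpus, luminal-like and fibroblast-like cells held 554 and 546 CPM with overlapping intervals, but 1 luminal cell held 30 of the 71 UMIs. Without the highest cell of each, the levels were 321 and 542 CPM. T or NK-like cells held 300 CPM, endothelial-like cells 136 and the clusters led by long genes 136 CPM. For comparison, CST3 in the caput non-macrophage clusters lay at 0.400% to 22.8% of its macrophage level. The range was 0.527% to 13.4% for CD74, 0.650% to 13.1% for CTSS, 0.406% to 5.98% for C1QA and 0.139% to 2.55% for LYZ. With the clear or narrow-like cluster left out, CST3 reached 5.77%, CTSS 8.57%, C1QA 5.98%, CD74 3.03% and LYZ 1.66%. The part of free macrophage RNA in the lower CST3 levels was not tested.

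Testis germ cells held little CST3. Apart from cluster 12 (12.3 CPM), the germ clusters ranged from 3.70 to 7.77 CPM. Cluster 11, with stromal markers, held 117 CPM (93.0 to 144), and its level was 0.578% of that in testis macrophage-like cells. Caput germ-like clusters held more, at 351 and 41.8 CPM, and the same clusters held CST11 at 369 and 43.4 CPM. Over the whole library, caput CST3 was 21.03-fold above testis (20.01 to 22.1), a direction in which 54.2% of genes were called.

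Corpus levels of CST3 were above caput levels in each class compared, by less than 2-fold. The ratio was 1.82 in macrophage-like cells (1.76 to 1.88), 1.58 in fibroblast-like cells (1.39 to 1.81), 1.89 in T or NK-like cells (1.48 to 2.40), 1.63 in luminal-like cells (1.27 to 2.07) and 1.52 in the clusters led by long genes (1.31 to 1.76). None of these was called. For background, genes called higher in corpus made up 2.07%, 0.418%, 1.89%, 1% and 0.681% of those tested, in the same order. Over whole libraries the ratio was 2.20 (2.14 to 2.27), which was called, as were 1.77% of genes in that direction. Scaled by the median gene ratio it was 1.91 (1.85 to 1.96), which ended the call. The corpus library was also the shallower of the pair, and its median gene ratio to caput was 1.16.

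The luminal ratio rested on 1 cell. A single corpus cell held 30 of the 71 luminal CST3 UMIs, and without the highest cell of each segment the ratio was 0.967 (0.691 to 1.32). The T or NK-like ratio went the other way, from 1.89 to 2.24 (1.73 to 2.88), as 1 caput cell held 37 of 185 UMIs, and its interval still reached below 2-fold. The fibroblast-like ratio stayed at 1.61 and the macrophage-like ratio was 1.95.

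**Figure D4:**
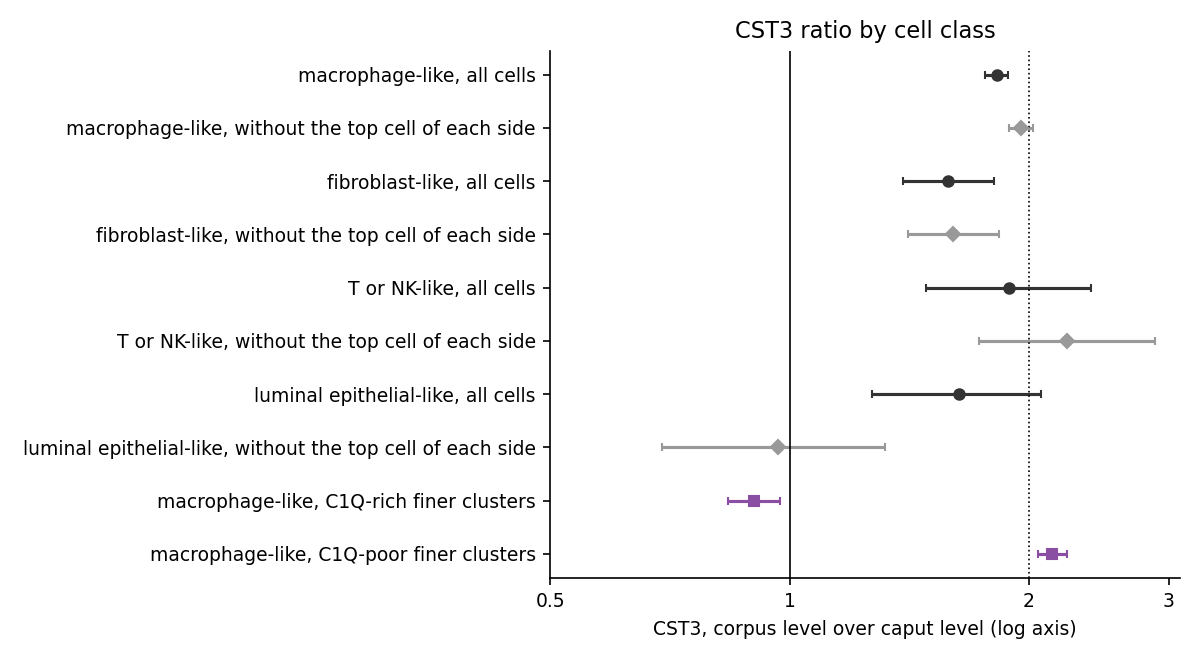
Ratio of CST3 levels, corpus over caput (log axis), in 4 cell classes with all cells and without the top cell of each side, and in finer macrophage-like clusters; bars are exact 95% intervals, the solid line marks equal levels and the dotted line 2-fold. The C1Q-rich macrophage-like clusters lie at 0.903 and the C1Q-poor ones at 2.14, while all macrophage-like cells lie at 1.82. C1Q-poor is relative to the other cluster of the same segment: C1QA is at 1286 CPM in the caput cluster and 172 CPM in the corpus one.

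The macrophage-like ratio differed between kinds of macrophage-like cell. At the finer clustering, looked at after the levels were seen, each segment had a cluster rich in C1QA, a complement gene typical of resident macrophages, and a cluster poorer in it. The C1Q-rich clusters held 10539 CPM of CST3 in caput (223 cells, C1QA 3969 CPM) and 9518 CPM in corpus (184 cells, C1QA 2944 CPM). Their ratio, corpus over caput, was 0.903 (0.837 to 0.973), the opposite direction to the whole class. The C1Q-poor cluster of corpus, with 458 cells and C1QA at 172 CPM, held 22465 CPM of CST3. That was 2.36-fold above the C1Q-rich corpus cells (2.19 to 2.54) and 2.14-fold above the C1Q-poor caput cells (2.05 to 2.23), which held 10488 CPM with C1QA at 1286. Without the highest cell of each side, which in caput held 694 of 3571 UMIs, the C1Q-poor ratio was 2.57 (2.46 to 2.69). In caput the C1Q-poor and C1Q-rich clusters differed by 0.995-fold (0.952 to 1.04) with all cells counted. Without the highest cell of each, their levels were 8572 and 10355 CPM.

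The C1Q-poor corpus cells were also distinct in other genes. LYZ, lysozyme, was at 4971 CPM there and 251 in the C1Q-rich corpus cells, and CPVL, a serine carboxypeptidase of myeloid cells, at 1728 and 377 CPM. CTSB, a lysosomal cysteine protease that CST3 can inhibit, went the other way, at 569 against 2488 CPM, and was 4.37-fold higher in the C1Q-rich cells (3.52 to 5.45). In caput CTSB was likewise 4.16-fold higher in the C1Q-rich cells (3.62 to 4.79). There CST3 did not differ beyond counting error with all cells counted. Without the highest cell of each, caput CST3 was lower in the C1Q-poor cells, at 8572 against 10355 CPM. In the corpus cells CTSS, the cathepsin that trims the invariant chain in antigen-presenting cells, was at 1269 against 2100 CPM. CD74, the invariant chain, was higher, at 20872 against 15110 CPM. Of the macrophage markers, CD14 was higher, at 942 against 217 CPM. CD163 and MRC1 were lower, at 57.3 against 183 and 81.9 against 285 CPM. FLT3 was at 123 against 45.6 CPM and CLEC9A at 53.2 against 34.2 CPM, the lower sides from 4 and 3 UMIs. The name macrophage-like is that of the whole cluster, so other kinds of myeloid cell within it were not told apart. In corpus, CST3 was thus highest in the cells with more LYZ and CPVL and less CTSB. These clusters share a library, and the C1Q-poor clusters of the 2 segments differ in their other genes too.

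In the testis, the 22 macrophage-like cells held LYZ at 3767, CPVL at 2871 and C1QA at 126 CPM beside CST3 at 20164. Their CST3 was 1.93-fold above that of caput macrophage-like cells (1.82 to 2.04), a ratio that was not called, while 3.43% of genes were called higher in testis. Late spermatocyte markers summed to 5293 CPM in these testis cells and 344 CPM in the caput ones. The part of germ cell RNA in the ratio was not tested.

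Over the 19 epididymal clusters, the genes most like CST3 among 10596 were CTSS (r = 0.937), CTSZ (0.920), CTSB (0.897), CD74 (0.888) and LYZ (0.876). The first 3 are cathepsins, the enzyme group that CST3 can inhibit. The clusters share their libraries, and the highest values are those of the macrophage-like clusters.

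**Figure D5:**
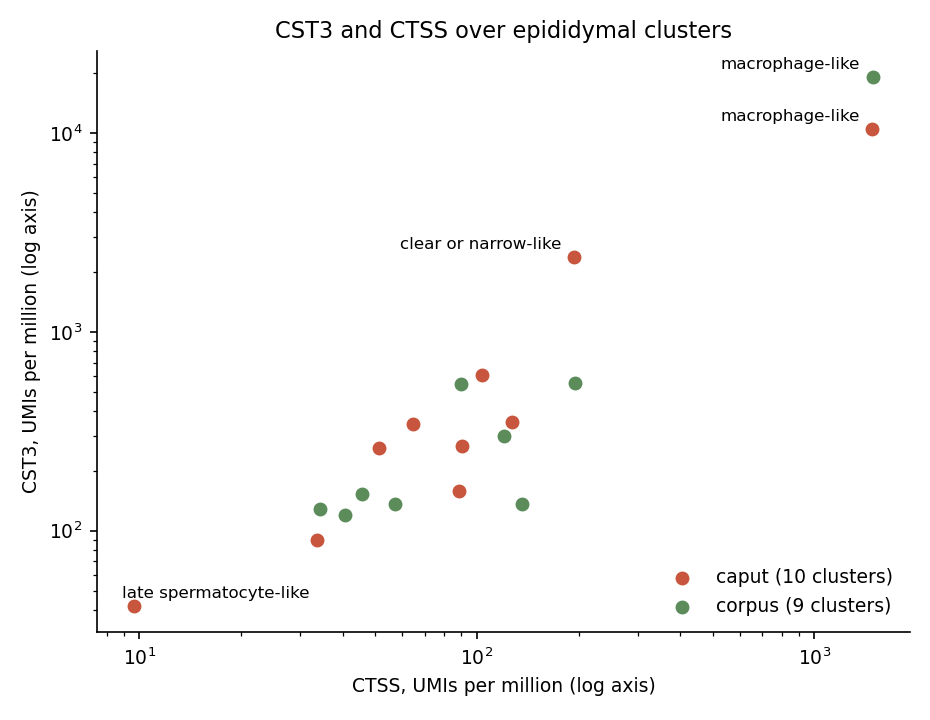
CST3 against CTSS levels (CPM, both axes log) in 10 caput and 9 corpus clusters. The macrophage-like clusters lie at CTSS 1484 and 1489 CPM, with CST3 at 10450 CPM in caput and 19046 CPM in corpus.

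Of 12 cysteine proteases listed, 11 were in the files. In macrophage-like cells of caput and corpus, CTSB held 1958 and 1076 CPM, CTSS 1484 and 1489, CTSH 826 and 726, CTSZ 546 and 808, CTSC 438 and 202, and LGMN, legumain, 254 and 160 CPM. Other proteases had other main cells: CTSW in T or NK-like cells (1073 and 871 CPM) and CTSK, the collagen-degrading cathepsin, in fibroblast-like cells (181 and 167 CPM). CTSF was spread evenly over testis germ cells, at 140 to 181 CPM in all 10 germ clusters.

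Between caput and corpus, 0 of the 2, 6, 6 and 3 proteases with enough UMIs were called in luminal, fibroblast, macrophage and T or NK-like cells. Background calls there ran from 0.418% to 4.86% of genes in a direction. The median log2 difference of the tested proteases in macrophage-like cells, corpus minus caput, was -0.42, against -0.27 for all genes tested. Over whole libraries, 10 of 11 proteases were called higher in caput than in testis and CTSF higher in testis, beside 54.2% and 18.9% of all genes. CTSB and CTSC were called higher in caput than in testis macrophage-like cells, beside 11.5% of genes.

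Of 21 cystatin family genes listed, 11 were in the files. Beside the members and CSTL1, CST6, an inhibitor made by epithelia that also blocks legumain, was at 179 CPM in corpus luminal cells (23 UMIs) and 17.4 CPM in caput luminal cells (72 UMIs). That is a 10.3-fold difference (6.16 to 16.7) on too few UMIs for a call. CTSL and LGMN, proteases that CST6 can inhibit, had 16 and 22 UMIs in the same corpus cells, at 125 and 172 CPM against 25.8 and 51.4 in caput. CST7, cystatin F of cytotoxic lymphocytes, was at 106 and 73.0 CPM in T or NK-like cells of caput and corpus. CSTA, AHSG, FETUB, HRG and KNG1 did not exceed 33.1 CPM in any of the main clusters.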

How the data were processed

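Single cells of donkey testis, caput and corpus were profiled on DNBelab C4 droplets, with 1 library per tissue, per the labels' protocols. As deposited, each matrix gives a raw UMI count per gene feature and barcode, not normalized, and was written with PISA 0.12 per the file headers. Cell Ranger 2.1.1 also stands in the submitters' processing notes, with no role stated. The sources used here give no aligner, no genome build and no rule for reads shared by related cystatin genes or by both strands, so counts of close copies are uncertain. A feature absent from a library's file was taken as 0.

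Cells with at least 200 genes were kept, which removed 2 corpus cells, and the 2 corpus cells called as doublets were removed. Doublets were scored against 2 simulated doublets per cell at an assumed rate of 6%. Each library was clustered alone in scanpy 1.11.5 (log counts, 2000 variable genes, 30 principal components, 15 neighbours, Leiden resolution 1, leidenalg 0.10.2), leaving out the cystatin family. Clusters were named from marker lists: a marker counted when it had 5 or more UMIs, was found in 5% of the cluster's cells or more, and stood 2-fold over the median of the other clusters. Naming required 3 such markers, making up 20% of those measured or more, and no other type with more markers than the best one among the 10 leading genes. Those 10 included LOC features. These naming limits were set after the clusters were seen. The members and gene lists were chosen with earlier results of these data known.

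Counts were summed per cluster. Levels have exact Poisson intervals, ratios exact conditional binomial intervals and shares of cells exact Clopper-Pearson intervals, all at 95% (scipy 1.17.1), and all cover counting error only. A group at 0 was replaced by 3 counts over the group for a lower bound. The ratio rule was tested on simulated data, whose outcome is not given here and which cannot show the spread between animals. For each member the text names the 5 genes with the highest Pearson correlation of log2(CPM + 10), among genes with at least 200 UMIs. Of the lists it names up to 4 members with the most UMIs in a class and those called, plus those said to be named after their values were seen. RefSeq's gene table matched 2 of the 3 members and was used for names and neighbours only. No sequence is printed.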

Additional observations from a re-analysis of the deposited data

How the results depend on the processing

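No paired analysis was possible because each tissue is 1 library, and leaving out a replicate was not possible either. Of the alternative values, 59 stayed close to the reported one, 37 moved and 3 reversed; the causes were not tested. CST8 in elongating over round spermatid-like cells was 41.7 at resolution 0.5 and 53.1 with cystatins used for clustering, and, with germ cells split by marker score into 5 equal groups, the highest over the next group gave 17.3. Round over late spermatocyte-like cells gave 5.55 at resolution 0.5 and 5.97 with cystatins used for clustering, both wholly beyond 2-fold. For CST3 in macrophage-like cells, corpus over caput, cells with at least 500 genes gave 1.72, leaving out the 5% highest doublet scores 1.94, the mean of per-cell CPM 1.97 and scaling by the median gene ratio 1.66. Alternatives chosen after seeing the data gave 1.95 without the highest cell of each side, 2.14 in C1Q-poor clusters and, reversed, 0.903 in C1Q-rich clusters. In T or NK-like cells the ratio was 1.37 and 1.45 at resolutions 0.5 and 2.0, and 2.63 with at least 500 genes. In luminal cells it was 1.10 with at least 500 genes, and it reversed to 0.601 without the 5% highest doublet scores and to 0.967 without the highest cell. The CST11 luminal bound, caput over corpus, was 56.8 and 59.0 at resolutions 0.5 and 2.0, 54.9 with cystatins used, 36.6 with at least 500 genes, 32.6 without the highest doublet scores and 64.6 when scaled. Caput luminal CST11 was 1359, 1421, 1285 and 1279 CPM under the first 4 of these, and 1029 as a mean of per-cell CPM. Over whole libraries, CST3 in corpus over caput was 3.32 with at least 500 genes and 1.91, no longer called, when scaled. CST8 in testis over caput was 5.13, wholly beyond 2-fold, when scaled and 3.17 as a mean of per-cell CPM. Thinned to 1000 UMIs, the shares of cells with a UMI were 53.6% for CST8 in elongating and 17.3% for CST11 in caput luminal cells, and 91.6% and 95.0% for CST3 in caput and corpus macrophage-like cells, the last from 20 cells. With at least 10 UMIs for a call, 2 of 7 tested cystatins were called in luminal cells, CST6 higher in corpus and CST11 in caput. Of 8 tested proteases there, 2 were called, CTSL and LGMN, both higher in corpus. In macrophage-like cells 1 of 4 tested cystatins was called, CST11, higher in caput. The share of all genes called at 10 UMIs was not computed, so these counts have no background. Corpus luminal cells held 128224 UMIs in all, so 3 counts of a gene there are 23.4 CPM.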
